A study of Mus musculus with 183 samples.

Results

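The 200 non-histone mRNAs with the largest relative XRN1 binding in mouse embryonic stem cells (mESCs) are described here, out of 6296 eligible mRNAs (non-histone, median RPKM 5 or more) and 7240 mRNAs in the deposited table. They were chosen by that binding value alone. Relative binding comes from crosslinking and analysis of cDNAs (CRAC), in which UV light fixes a tagged protein to the RNA it touches and the bound fragments are sequenced. For each mRNA the authors pooled the CRAC replicates of MTR4, SKIV2L and XRN1, scaled the 3 datasets to the smallest, and gave each protein its share of the total, so that the 3 shares sum to 1. The value that chose these mRNAs is therefore a share and not an amount of binding, and it has no replicate error here. RPKM, the read count scaled to transcript length and library size, comes from RNA-seq of the lines that carry 3xFLAG-Avi tags on these proteins.

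XRN1 is the cytoplasmic exonuclease that degrades an mRNA from its 5′ end after the poly(A) tail has been shortened and the cap removed. The Ski complex, with its helicase SKIV2L, feeds mRNAs into the exosome from the 3′ end in the cytoplasm, and the helicase MTR4 does the same in the nucleus. Deadenylation and decapping are often triggered by elements of the 3′ UTR, among them AU-rich elements, Pumilio sites and microRNA sites, and the mRNAs of many regulatory proteins are known for such elements and for short half-lives.

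The levels and half-lives come from 47 RNA-seq libraries of 2 mESC clones, which share a Rosa26 Cre-ERT2 allele. Clone 5F is Skiv2l fl/fl and has intact Aven. Clone 7E is Aven-/- and is named a Skiv2l and Aven double mutant, with a BirA allele at Rosa26 and tagged Skiv2l in its genotype label. The label of these libraries does not name a floxed Skiv2l allele, which the label of other RNA-seq libraries of clone 7E gives. AVEN is an RNA-binding partner of the Ski complex. Each clone was sampled at day 0 and at day 4 of 0.1 µM 4-hydroxytamoxifen (4OHT), which activates Cre to delete the catalytic part of Skiv2l where that gene is floxed, and after 0 (mock, DMSO), 120, 240 or 360 min of actinomycin D, an inhibitor of transcription. Every group holds 3 libraries except the 120 min group of clone 5F at day 0, which holds 2. The replicates are technical per the study, and p-values measure only the spread between these libraries. Each genotype is 1 clone. The loss of AVEN, the Skiv2l tag, the lower Skiv2l count of clone 7E at day 0 (given below) and the clone thus cannot be told apart.

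Total counts were 24440935 to 34114250 per library, and all 200 mRNAs were in the count table. Normalised read counts are counts scaled between the libraries of a time point and, with spike-in RNAs, between time points, as the study did. In the mock libraries Aven had 1004, 1012 and 997.8 in clone 5F and 56.6, 86.0 and 58.1 in clone 7E at day 0. Skiv2l had 4150, 4136 and 4205 in clone 5F at day 0 and 4415, 3825 and 4162 in the libraries labelled day 4, which did not differ beyond their spread. In clone 7E it had 967.9, 1038 and 902.8 at day 0 and 405.5, 389.5 and 367.5 at day 4. The count covers the whole gene and not only the deleted exons, so "day 4" below is the label and not a loss measured in these libraries. The paper states that recombination of the floxed gene after 4OHT was checked by RT-qPCR or western blot. All 10 embryonic stem cell markers, Pou5f1 and Nanog among them, had a mean of at least 100 in every mock group. The summed count of 6 primitive endoderm markers was 2759 to 2855 in clone 5F and 314.7 to 359.3 in clone 7E at day 0. The sum of 5 trophectoderm markers was 1009 to 1076 at day 0 and 2674 to 3124 at day 4 in clone 7E, and that of 3 neural markers was 3155 to 3349 and 4809 to 5131. The trophectoderm sum was mostly Krt8, and 2 of its 5 markers had a mean of at least 100 in clone 7E. Over all mock libraries Krt8 had 877.5 to 2694 and Krt7 93.3 to 363.8. Cdx2 had 13.7 to 34.6, Elf5 0 to 3.17 and Hand1 0.977 to 33.4. Over all mock libraries the sum was 176.5 to 284.6 for 4 epiblast and mesoderm markers and 67.5 to 275.0 for 6 fibroblast markers, and Dcn and Lum were at 0 in some libraries. The part of these marker differences in the comparisons below was not tested.

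The relative XRN1 binding of the 200 mRNAs ran from 0.657 to 0.907 with a median of 0.701, and the median of all eligible mRNAs was 0.346. These are the values that chose the list and are given without a test. The 10 highest were Aff1 with 0.907, Zfp12 with 0.878, Mgat1 with 0.864, Src with 0.862, Erf with 0.858, Tbx3 with 0.850, Zfp472 with 0.843, Tmem51 with 0.840, Btbd3 with 0.836 and Rara with 0.836. They encode, among others, a subunit of the super elongation complex (Aff1), an enzyme of N-glycan synthesis (Mgat1), a tyrosine kinase (Src) and DNA-binding regulators (Erf, Tbx3, Rara). Just inside the threshold were Unc119b and Cbll1, both at 0.657, and just outside were Desi2 and Zfp212, both at 0.657 as well, so the edge of the list separates values that are alike. The values lie on a continuum, with 41 mRNAs over 0.75 and 15 over 0.8.

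**Figure D1:**
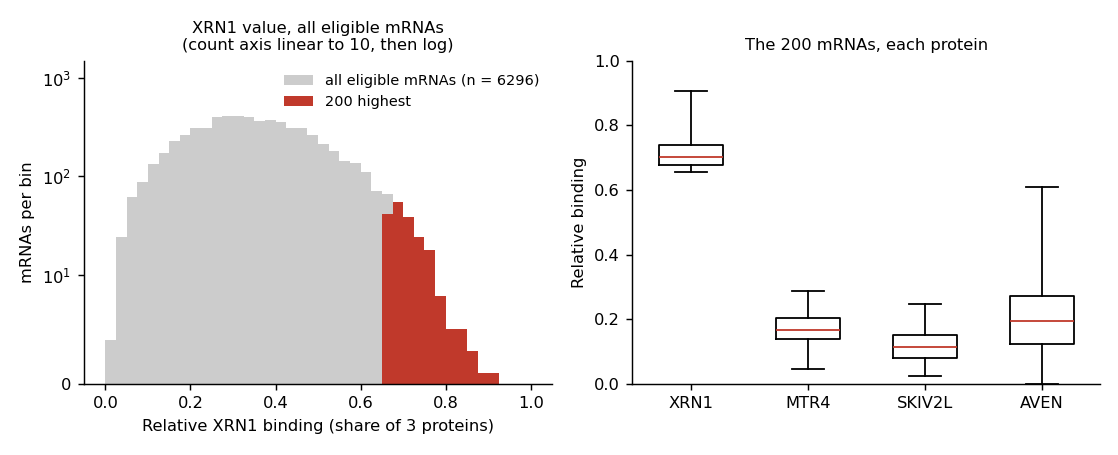
Left: number of mRNAs per bin of relative XRN1 binding (share of the 3 proteins) for all 6296 eligible mRNAs in grey and the 200 highest in red, on a count axis that is linear to 10 and logarithmic above. Right: relative binding of each protein over the 200 mRNAs (line, median; box, quartiles; whiskers, lowest to highest). The red mRNAs form the upper tail of 1 distribution, and MTR4, with a median of 0.166, lies above SKIV2L, with 0.113.

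The share left over went more often to MTR4 than to SKIV2L. The median relative binding was 0.166 for MTR4 and 0.113 for SKIV2L, and MTR4 was the larger of the pair in 152 of the 200 mRNAs. Over all eligible mRNAs the medians were 0.303 and 0.286, and MTR4 was the larger in 3445 of 6296. Since the 3 shares sum to 1, a high XRN1 share sets an upper limit to both. AVEN, given as its ratio to the same sum, had a median of 0.195 over the 200 mRNAs and 0.303 over all eligible mRNAs, with 4 of the 200 at 0.

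The 200 mRNAs were less abundant than the typical eligible mRNA, with a median RPKM of 15.3 and a range of 5.16 to 359, against 25.3 for all eligible mRNAs. The median was 95.8 for the 200 mRNAs with the largest relative SKIV2L binding and 9.91 for the 200 highest in MTR4. The RPKM was highest in the XRN1-tagged line in 99 of the 200 mRNAs (49.5%) and in 33.2% of all eligible mRNAs, so a higher level in the line used for XRN1 CRAC moved with the choice. By the deposited score that corrects XRN1 binding for RPKM, 145 of the 200 mRNAs were among the 200 highest. A median RPKM of 20 or more was reached by 83 of the 200 and by 3734 of the 6296 eligible mRNAs. For 15 of the 200 mRNAs, and 670 eligible mRNAs, all 3 shares are identical to those of another mRNA.

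The sequences below show the 3′ UTR elements that recur among these mRNAs, in short windows of the mRNA strand with the match in capitals (GRCm38). The first 5 hold an AU-rich core, written TATTTAT in DNA letters. Csrnp1, Socs3 and Cmtr2 had 3 of the 5 shortest half-lives of the list, Aff1 had its highest XRN1 value, and Emp1 had 1 of its 5 longest half-lives (mock mean of 100 counts or more), so the core is found at both ends of the range.
Csrnp1 (chr9:119972067-119972095, minus strand, 3′ UTR): cactctgaattTATTTATttttttatgtt
Socs3 (chr11:117966139-117966167, minus strand, 3′ UTR): ctttgcacataTATTTATatttatactca
Cmtr2 (chr8:110223423-110223451, plus strand, 3′ UTR): tttacctgcccTATTTATttaatactttt
Aff1 (chr5:103851777-103851805, plus strand, 3′ UTR): caagtgttttaTATTTATagcaaaactca
Emp1 (chr6:135382713-135382741, plus strand, 3′ UTR): atagttgctggTATTTATgtaaagggacc
The match lies 156 nt after the stop codon in Csrnp1, 1397 nt in Socs3, 71 nt in Cmtr2, 965 nt in Aff1 and 1584 nt in Emp1.

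The next set shows the seed of the miR-290 family, the microRNAs best known for their abundance in mESCs, with bases 2 to 8 in capitals (RefSeq, GRCm38.p6), and matches to bases 2 to 7 of it, written GCACTT, in 3 of the 200 mRNAs. Tbx3 and Cmtr2 decayed fast, and Tgm2 had the longest half-life at that count minimum.
mmu-miR-291a-3p (chr7:3218968-3218989, plus strand): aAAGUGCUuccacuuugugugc
mmu-miR-294-3p (chr7:3220691-3220712, plus strand): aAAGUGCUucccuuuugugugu
mmu-miR-295-3p (chr7:3220815-3220837, plus strand): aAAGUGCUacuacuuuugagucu
Tbx3 (chr5:119683150-119683177, plus strand, 3′ UTR): aatctgccagtGCACTTtgttagatgta
Cmtr2 (chr8:110223795-110223822, plus strand, 3′ UTR): tttacctggaaGCACTTggcatgtctgt
Tgm2 (chr2:158116975-158117002, minus strand, 3′ UTR): ccaggctcagtGCACTTctgggaaggag
The levels of these microRNAs were not measured in the libraries used here. A match is a run of letters and not a site shown to be used.

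The clearest shared feature of the 200 mRNAs was a long 3′ UTR. Its median length was 1618.5 nt, against 936.5 nt for all eligible mRNAs, 543.5 nt for the 200 highest in MTR4 and 279 nt for the 200 highest in SKIV2L. It exceeded 1000 nt in 139 of the 200 mRNAs (69.5%) and in 47.7% of all eligible mRNAs. In 123 of the 200 mRNAs (61.5%) it was longer than the coding sequence, which was so in 35.4% of all eligible mRNAs. The coding sequence itself, with a median of 1278 nt, was not longer than that of all eligible mRNAs, with 1422 nt, and the median 5′ UTR had 173 nt against 162 nt. The range was wide, from 128 nt to 11064 nt in Ago2, the slicing Argonaute of the microRNA pathway. The binding share counts reads over the whole mRNA. The paper reports XRN1 as strongly enriched in 3′ UTRs and SKIV2L as biased toward 5′ UTRs and coding sequences. The length of the 3′ UTR is therefore not independent of the value that chose the list, and its part in that value was not tested.

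The same mRNAs were richer in G and C. The median GC content was 70.6% in the 5′ UTR, 56.2% in the coding sequence and 49.5% in the 3′ UTR, against 66.0%, 52.2% and 44.0% over all eligible mRNAs. These values rest on the 182 of 200 mRNAs, and 5829 of 6296 eligible mRNAs, whose transcript sequence could be matched. Where along the mRNAs the CRAC reads fell was not analysed here.

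An AU-rich core was found in the 3′ UTR of 69 of 182 mRNAs (37.9%) and in 27.3% of all eligible mRNAs with sequence, in 17.6% of the 200 highest in MTR4 and in 9.57% of the 200 highest in SKIV2L. Per kilobase of 3′ UTR the difference from all eligible mRNAs was small, with 0.295 cores against 0.288. Among 3′ UTRs of up to 500 nt the core was in 3 of 18 listed mRNAs (16.7%) against 7.51% of eligible mRNAs, and among those of 500 to 1000 nt in 9 of 36 (25.0%) against 19.7%. Among 3′ UTRs of 1000 to 2000 nt the core was in 34.6% of the listed mRNAs and 31.8% of eligible mRNAs, and among those of 2000 to 4000 nt in 52.3% and 50.8%. Over 4000 nt the order turned, with 5 of 11 listed mRNAs (45.5%) against 69.2%. The listed mRNAs thus had the higher share in 4 of the 5 length bands, by a small margin in the bands that held most of them.

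The other 2 elements gave a like picture. A match to the miR-290 family seed was in 37.9% of the 182 mRNAs and in 30.0% of eligible mRNAs, at 0.329 and 0.314 per kilobase. A Pumilio core, TGTANAT, was in 56.6% and 46.1%, and per kilobase it was less dense in the listed mRNAs, at 0.589 against 0.701. With a minimum RPKM of 20, 30.2% of the 200 highest in XRN1 with sequence had a miR-290 family match, at 0.270 per kilobase. That share is close to the share of all eligible mRNAs. A Pumilio core was then in 54.2%. In the top 100 of the list a miR-290 family match was in 33.3%. The searches read the mRNA strand alone, since 3′ UTR elements act in the mRNA. The AU-rich and Pumilio cores can share letters where a TAT ends 1 and begins the other.

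**Figure D2:**
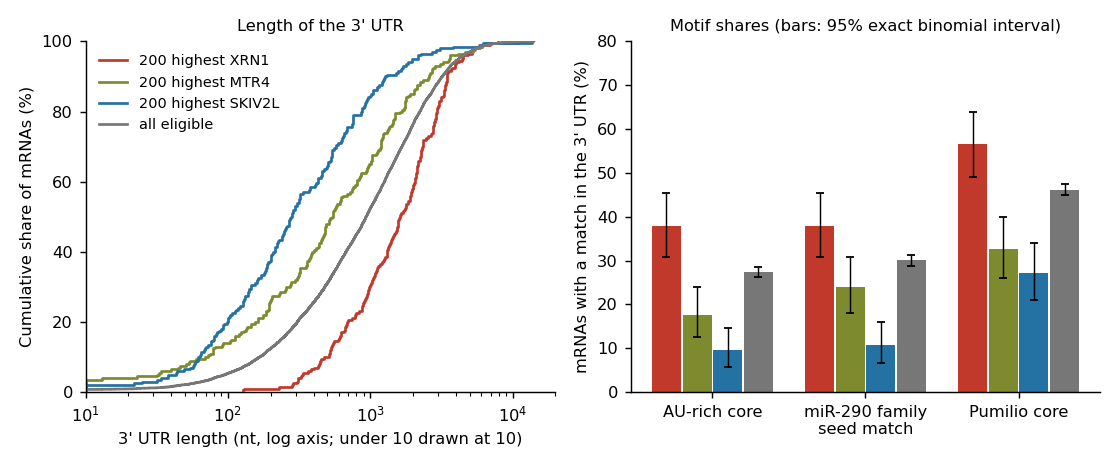
Left: cumulative share of mRNAs (%) against 3′ UTR length (nt, log axis) for the 200 mRNAs highest in XRN1, MTR4 and SKIV2L and for all eligible mRNAs. Right: share of mRNAs (%) with a match in the 3′ UTR, with bars for the 95% exact binomial interval over mRNAs. The XRN1 curve lies to the right of the other 3, with a median of 1618.5 nt, and its AU-rich share is 37.9%.

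The 200 mRNAs held a larger share of the transcription factor, zinc finger, GTPase and kinase genes than of the ribosomal protein and respiratory chain genes. They made up 3.18% of all eligible mRNAs, against which the groups below are read. The list held 13 of 130 transcription factor mRNAs (10%), led by Tbx3, Rara, Smad7 with 0.793 and Tfap4 with 0.767. SMAD7 is a feedback inhibitor of TGF-beta signalling. It also held Klf4, Rarg, E2f2, Etv4, Klf13 and Klf16. The transcription factor group is a chosen set of genes, and it leaves out Erf and Klf15, which are among the 200. Of 119 zinc finger mRNAs the 200 held 11 (9.24%), led by Zfp12, Zfp472, Zbtb34 with 0.790 and Zfp787 with 0.774.

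Signalling genes were held at a like share. Of 66 mRNAs for small GTPases and G protein subunits 7 (10.6%) were listed, with Mras at 0.742, Gna12 at 0.725, Rab35 at 0.719 and Rab31 at 0.713, and Hras at 0.669. Of 126 mRNAs for kinases and MAP kinase phosphatases 11 (8.73%) were listed, with Src, Map2k7 at 0.763, Stk40 at 0.727 and Dyrk1a at 0.727, followed by Pim3 and the casein kinase genes Csnk1d, Csnk1e and Csnk2a1. Of 24 apoptosis genes 2 (8.33%) were listed, Bbc3 at 0.719 and Bak1 at 0.692, which both promote permeabilisation of the mitochondrial outer membrane.

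The group set up for endomembrane transport had 6 of 103 mRNAs (5.83%), with Dgcr2 at 0.824, Trappc10 at 0.780, Rcn1 at 0.733 and Tvp23b at 0.688. Dgcr2 and Rcn1 were placed in it by name, and a place in the group is not a shown role in transport. Ubiquitin conjugation had 7 of 207 (3.38%), near the overall share, with Ube2l3 at 0.813, Rnf7 at 0.748, Ube2d2a at 0.712 and Fbxw11 at 0.702. None of 52 ribosomal protein mRNAs was listed, and their median XRN1 share was 0.269. Of 73 nuclear-encoded respiratory chain mRNAs 1 was listed, Cox7a2l at 0.685. Of 37 genes of the 5′ to 3′ decay pathway itself (decapping, deadenylation and microRNA effector genes) 1 was listed, Ago2 at 0.755. These groups take in 59 of the 200 mRNAs, and 141 belong to none of them. The groups were chosen with earlier results of these data known, and the counts are a description.

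The half-lives are independent of the rule, since they come from libraries that CRAC did not use. In clone 5F at day 0 the median half-life of the 200 mRNAs was 222.6 min (quartiles 144.6 and 345.6 min), against 298.2 min for all eligible mRNAs. The 200 mRNAs highest in MTR4 had 237.5 min and those highest in SKIV2L had 515.0 min, so the list was close to the former. Of the 200 mRNAs 31 (15.5%) had a half-life under 120 min, against 7.94% of all eligible mRNAs, and the 200 highest in MTR4 held the same number, 31. A positive half-life could be fitted for 199 of the 200. The median was 219.6 to 232.5 min with each replicate left out.

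The pattern was alike in clone 7E, with a median of 234.2 min at day 0 against 299.6 min for all eligible mRNAs. At day 4 the medians of the list were 223.6 min in clone 5F and 233.7 min in clone 7E. At 120, 240 and 360 min of actinomycin D, the median level left in clone 5F at day 0 was 52.5%, 40.4% and 32.9% of the mock mean for the list and 62.9%, 51.1% and 42.8% for all eligible mRNAs. The loss was thus larger by the earliest time, and its gap to all mRNAs stayed of similar size in percentage points. As a ratio of the levels left, the gap grew with time. With a minimum RPKM of 20 instead, the 200 highest in XRN1 had a median of 275.7 min, and the eligible mRNAs of that level had 332.7 min.

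**Figure D3:**
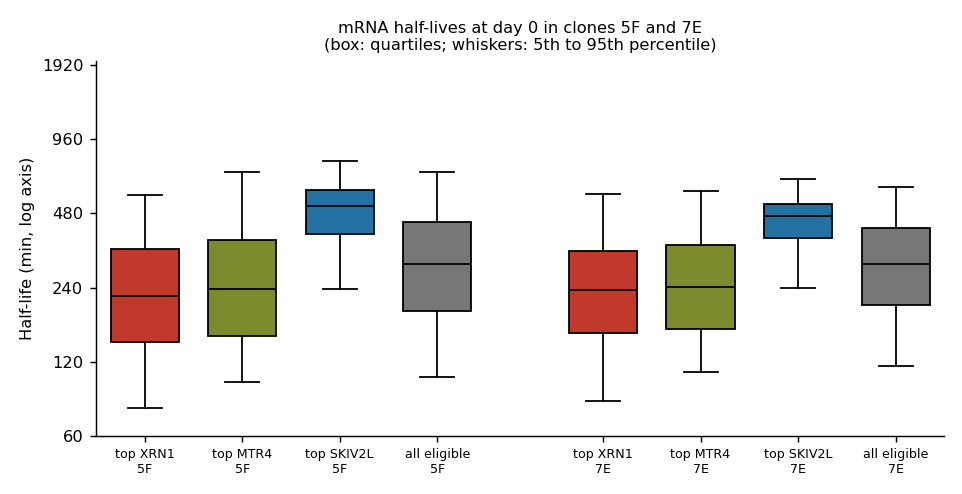
Half-life (min, log axis) at day 0 in clones 5F and 7E for the 200 mRNAs highest in XRN1, MTR4 and SKIV2L and for all eligible mRNAs (box, quartiles; line, median; whiskers, 5th to 95th percentile). In clone 5F the medians are 222.6 min for XRN1, 237.5 min for MTR4, 515.0 min for SKIV2L and 298.2 min for all.

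Half-lives differed widely among the 10 mRNAs with the highest XRN1 share. Zfp472 had 70.5 ± 7.85 min (standard error of the fit, 11 libraries), Zfp12 80.9 ± 10.4 min, Tmem51 85.9 ± 11.1 min, Tbx3 87.3 ± 3.65 min and Btbd3 90.5 ± 6.69 min, and neighbours in the order of these 5 lie within their errors. Rara had 123.5 ± 12.6 min, Mgat1 131.7 ± 19.3 min and Erf 145.3 ± 7.80 min. Src, with 250.6 ± 13.3 min, and Aff1, with 304.9 ± 75.2 min, lay nearer to the median of eligible mRNAs, so a top XRN1 share came with fast as well as with average decay. Libraries of Aff1 spread widely, with 834.7, 327.6 and 651.5 normalised read counts at 240 min. In clone 7E the same 10 ran from 77.1 min for Zfp472 to 253.3 min for Aff1.

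The 5 shortest half-lives of the list were taken among mRNAs with a mock mean of at least 100 counts. Pim3, a serine/threonine kinase, had 61.1 ± 5.92 min, Med26, a Mediator subunit, 64.0 ± 8.70 min, Csrnp1, a nuclear protein induced by AXIN1, 65.2 ± 8.58 min, Socs3, the inhibitor of LIF and STAT3 signalling, 65.3 ± 9.37 min and Cmtr2, a cap methyltransferase, 67.4 ± 10.5 min. Their order is not resolved by these errors. Pim3 had normalised read counts of 4007, 4220 and 4116 in the mock libraries, 390.4 and 418.5 at 120 min, 119.5, 131.1 and 96.7 at 240 min and 69.1, 74.1 and 67.5 at 360 min. Socs3 had 2594, 2679 and 2670 in mock, 212.7 and 171.0 at 120 min, 59.7, 71.5 and 59.0 at 240 min and 55.9, 62.6 and 58.1 at 360 min. No mock library overlapped any treated library for either gene. Socs3 fell to 7.25% of its mock mean by 120 min and was at 2.39% and 2.22% at the later times. Its fall was thus not log-linear, and its 120 min level lay under what a half-life of 65.3 min gives. The same held for Pim3 (9.83% at 120 min), Med26 (6.19%), Csrnp1 (7.28%) and Cmtr2 (7.68%), and for Zfp472 (10.4%) and Zfp12 (12.0%) named above. For these mRNAs the fitted half-life is longer than the fall over the first 120 min gives, which the errors of the fit do not convey.

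At the other end, Tgm2, a transglutaminase, had 2080 ± 966 min, Aes, a Groucho-family corepressor, 1660 ± 651 min, Emp1, a membrane protein, 1586 ± 713 min, Kank4 1386 ± 761 min and Ndrg2 1262 ± 330 min. Half-lives this far beyond the 360 min of the course are poorly bounded, as their errors show. Tgm2 had 304.8, 297.7 and 314.6 normalised read counts in mock and 246.3, 273.3 and 278.4 at 360 min, a small fall without overlap.

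**Figure D4:**
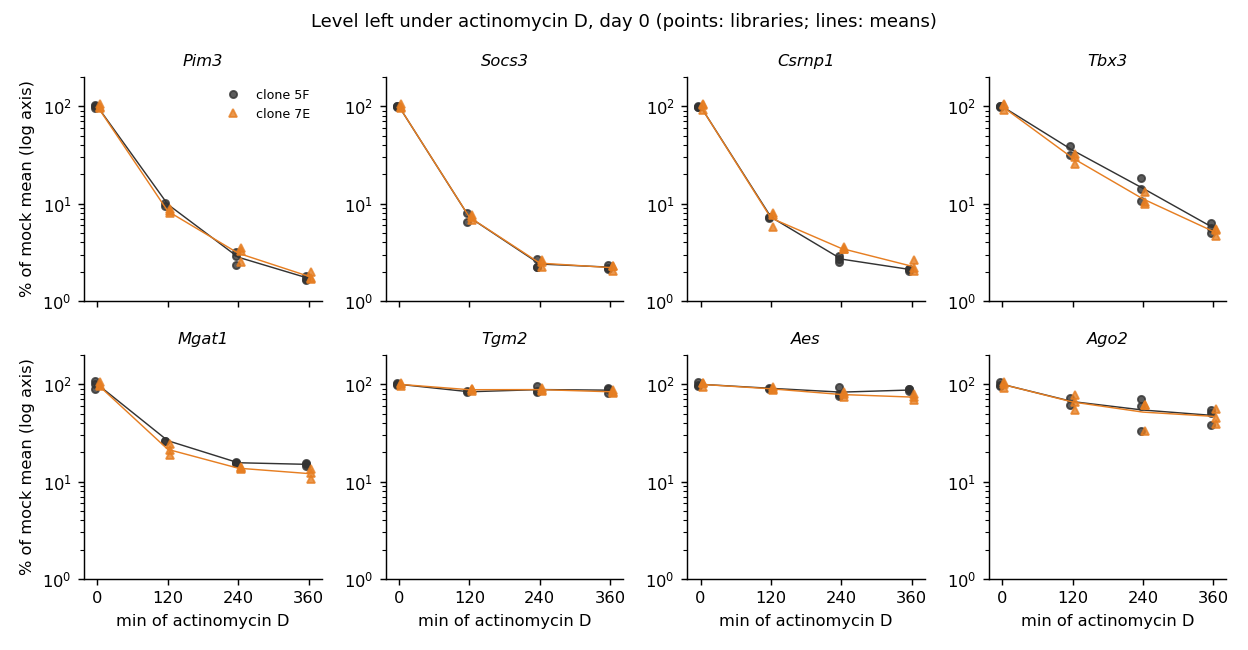
Level left (% of the mock mean, log axis) against minutes of actinomycin D at day 0 for 8 of the 200 mRNAs, in clone 5F (dark circles) and clone 7E (orange triangles), with a point per library and a line through the means. Pim3, Socs3 and Csrnp1 drop under 10% by 120 min, and Tgm2 and Aes stay over 70% at 360 min in both clones.

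Each mRNA was then tested for decay relative to bulk mRNA, that is, for a slope on time relative to the typical mRNA, in log2 per hour. Libraries were scaled by TMM, which uses a trimmed mean of log ratios between libraries. The test was the quasi-likelihood test of edgeR, with p adjusted by Benjamini-Hochberg over all genes tested and a threshold of 0.05. In clone 5F at day 0, 105 of the 200 mRNAs decayed faster than bulk and 49 slower, against 34.0% and 29.3% of all 17032 genes tested. The median slope of the list was -0.05 log2 per hour and that of all genes -0.00. In clone 7E, 98 decayed faster and 50 slower, against 32.8% and 28.7%, with a median of -0.04. Of these, 97 were faster in both clones, 45 slower in both, and 0 differed in sign between them. Among 16162 genes tested in both clones 4848 were faster in both, 4068 slower and 4 differed in sign.

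The largest slopes were those of the short-lived mRNAs named above. Relative to bulk, Med26 fell by 0.81 ± 0.08 log2 per hour (SE, adjusted p = 3.47e-07, edgeR quasi-likelihood) and Pim3 by 0.79 ± 0.06 (adjusted p = 1.49e-08, edgeR). Csrnp1 had -0.76, Cmtr2 -0.75 and Socs3 -0.74. In clone 7E, Med26 had -0.78, Pim3 -0.76, Socs3 -0.72, Csrnp1 -0.71 and Zfp472 -0.60. On the slow side Tgm2 had 0.19, Aes 0.18, Emp1 0.18 and Kank4 0.17 log2 per hour in clone 5F. In clone 7E the slow mRNAs were Emp1 with 0.21, Tgm2 0.18, Accsl 0.18 and Kank4 0.15.

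Libraries differed along GC content and transcript length. Over eligible mRNAs, a library's departure from its group mean had a Spearman correlation with 3′ UTR GC content of -0.64 to 0.60, and the median departure of the 200 mRNAs was -0.09 to 0.07 log2. With transcript length the correlation of these departures was -0.39 to 0.45. In clone 5F the list had a median slope of -0.05 log2 per hour. The 1474 eligible mRNAs with a 3′ UTR at least as GC-rich as the list's median had 0.03. Over eligible mRNAs the slope had a Spearman correlation of 0.13 with 3′ UTR GC content and -0.25 with transcript length in clone 5F. In clone 7E these were 0.07 and -0.22. The median transcript was 3429 nt long in the list and 2963.5 nt over all eligible mRNAs. The part of GC content and length in the slopes was not tested.

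Of the 13 listed mRNAs of the transcription factor group 9 decayed faster than bulk in clone 5F and 2 slower. Of all 130 of the group 78 were faster and 19 slower. All 11 listed zinc finger mRNAs decayed faster, as did 95 of the 119 of the group. The median half-life in clone 5F was 138.2 min for the listed transcription factors and 173.6 min for the group, and 128.8 min and 135.3 min for zinc finger mRNAs. Listed GTPase mRNAs had 276.2 min and the group 320.4 min, and listed kinase mRNAs 250.6 min and the group 255.9 min. Of the 37 genes of the 5′ to 3′ decay pathway 18 decayed faster and 7 slower, and Ago2, the listed one, was on neither side with 0.04 log2 per hour.

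Listed mRNAs with a 3′ UTR element had shorter half-lives, as eligible mRNAs did. In clone 5F at day 0 the median was 175.8 min for the 69 mRNAs with an AU-rich core and 235.4 min for the 113 without one, and 240.8 min and 321.1 min among eligible mRNAs. For the miR-290 family match it was 176.8 min with and 238.3 min without, and for the Pumilio core 180.5 min and 257.3 min. The 76 listed mRNAs with a 3′ UTR over 2000 nt had 180.6 min and the 54 of up to 1000 nt had 222.6 min. The elements and the length move together and were not separated. With or without each element, the listed mRNAs had a lower median than eligible mRNAs of the same kind. The Csrnp1, Socs3 and Cmtr2 sequences shown above belong to the fast end, whereas Emp1, with the same core, did not fall with bulk mRNA.

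Decay of the 200 mRNAs was then compared between day 4 and day 0 of 4OHT, with the study's spike-in scaling. In clone 5F, 0 of 200 changed by edgeR's quasi-likelihood test, against 0.134% slower and 0.0614% faster of all genes tested, with 4 at an unadjusted p under 0.05, and 0 by DESeq2. The median change was 0.00 log2 per hour. In clone 7E, 1 of 200 decayed more slowly and 0 faster, against 0.402% and 0.482% of all genes. This was Mras, a small GTPase of the RAS family, with a change of 0.08 ± 0.02 log2 per hour (adjusted p = 0.00945, edgeR). Its level left at 360 min was 34.7% of mock at day 0 and 46.3% at day 4, with normalised read counts of 888.4, 930.4 and 891.4 against 827.9, 853.0 and 868.9, and its mock level was itself lower at day 4, at 1796 to 1864 against 2458 to 2714. The call did not hold with any replicate left out, and the adjusted p over the alternatives reached 1.

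Between the clones at day 0, 0 of 200 mRNAs differed in decay by edgeR's test, against 0.0338% slower and 0.00563% faster of all genes, with 10 at an unadjusted p under 0.05, and 0 by DESeq2. The median difference was 0.01 log2 per hour. In simulated data a change of 0.15 log2 per hour was found in 34% to 45% of genes and one of 0.05 in at most 1%, so smaller changes were not detectable at this depth and number of libraries.

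In the mock libraries 4OHT went with a fall of more listed mRNAs than a rise in clone 5F. By edgeR's quasi-likelihood test with TMM scaling, 49 of 200 fell and 20 rose at day 4, against 11.1% and 13.2% of all 16349 genes tested, with a median change of -0.02 log2. In clone 7E, 63 fell and 42 rose, against 19.0% and 21.0%, with a median of -0.06. In both clones 27 fell, 11 rose, and 5 moved in opposite directions, and each clone has its own day 0 libraries. Among 15836 genes tested in both, 1155 fell in both, 1386 rose in both and 90 moved in opposite directions. Without replicate 1 of clone 5F 24 fell and 8 rose, and without replicate 3 23 fell and 9 rose. The shares of all genes called in these left-out fits are not given here, so these counts stand for the list alone. In bulk RNA, fewer cells of a kind and less RNA per cell cannot be told apart, and marker sums moved with 4OHT in both clones. In clone 5F the neural sum was 2371 to 2430 at day 0 and 2963 to 3249 at day 4, and the fibroblast sum was 162.0 to 185.9 and 230.2 to 275.0. The sum of the 10 stem cell markers was 110530 to 111720 and 105960 to 108240 in clone 5F, and 109440 to 112350 and 94511 to 97286 in clone 7E, where the trophectoderm and neural sums given above were higher at day 4. None of these ranges overlap between the days, and their part in these counts was not tested.

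These counts are relative to the other mRNAs of a library. Scaled to each library's own spike-ins, which were added to the lysis buffer of each well, the median of all genes in clone 7E moved by -1.11 log2 at day 4, and 199 of the 200 mRNAs fell and 1 rose. The list's median was then -1.17, close to that of all genes. In clone 5F the median of all genes moved by -0.07 and that of the list by -0.09. The list split into 57 that fell and 6 that rose, and the shares of all genes called by this scaling are not given here.

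Trib3, a pseudokinase of the stress response, rose most in both clones. It had 416.5, 428.5 and 431.0 normalised read counts at day 0 and 834.9, 814.9 and 874.2 at day 4 in clone 5F, a change of 0.99 ± 0.07 log2 (adjusted p = 1.71e-09, edgeR). In clone 7E it went from 502.3, 572.6 and 582.5 to 1988, 1992 and 1974, a change of 1.85 ± 0.06 log2 (adjusted p = 1.72e-15, edgeR), and it was the listed mRNA that stayed higher under its own spike-ins. Aff1, with the top XRN1 share, had 966.7, 1018 and 825.2 at day 0 and 1286, 1379 and 1454 at day 4 in clone 5F, a rise of 0.55 ± 0.07 log2. The groups of libraries did not overlap for either gene. Tmem64 rose by 0.46 in clone 5F. In clone 7E Emp1 rose by 0.84, Phldb1 by 0.75, Aff1 by 0.67 and Tmem64 by 0.64 relative to bulk, and all of these 4 turned to a fall with each library's own spike-ins.

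Inhbb, Klf15 and Tgm2 had large falls in both clones. Inhbb, the beta-B subunit of activin and inhibin, had 3189, 3283 and 3315 at day 0 and 2372, 2158 and 2455 at day 4 in clone 5F, a fall of 0.48 ± 0.05 log2 (adjusted p = 1.07e-06, edgeR). In clone 7E it fell from 3467, 3702 and 3779 to 1558, 1527 and 1579, with -1.23 ± 0.05 log2 (adjusted p = 2.31e-14, edgeR). Klf15, a zinc finger transcription factor, fell by 0.63 in clone 5F and by 1.52 in clone 7E, and Tgm2 by 0.42 and 0.90. E2f2, an activator of cell-cycle genes, fell by 0.55 and Unc119 by 0.41 in clone 5F, and Tcf15 and Ndrg2 each fell by 0.99 in clone 7E. Among the 13 listed mRNAs of the transcription factor group, which leaves out Klf15, 8 fell and 0 rose in clone 7E. There 48 of the 130 of the group fell and 32 rose. In clone 5F 2 of the 13 fell and 2 rose, and of the group 17 fell and 40 rose.

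The change with 4OHT itself differed between the clones for 59 of the 200 mRNAs by edgeR's interaction test, a comparison added after the data had been seen. It was higher in clone 7E for 23 and lower for 36, against 6.85% and 5.22% of all genes tested. Without replicate 1 the counts were 6 and 14, with the shares of all genes not given here. With each library's own spike-ins, which moved the median of all genes by -1.03 log2 and that of the list by -1.06, the counts were 0 and 198. Tbx3, a T-box factor that supports self-renewal, moved in opposite directions. It had 1045, 1059 and 1070 normalised read counts at day 0 and 1298, 1266 and 1349 at day 4 in clone 5F, and 1163, 1346 and 1332 against 866.9, 894.5 and 869.7 in clone 7E. The libraries of the days did not overlap in either clone, and the difference of the changes was -0.85 ± 0.08 log2 (adjusted p = 1.35e-07, edgeR).

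Before 4OHT, clone 7E had higher levels than clone 5F of 74 listed mRNAs and lower levels of 38, against 20.6% and 19.3% of all 16299 genes tested, with a median difference of 0.04 log2 (edgeR, TMM, replicate numbers not paired). Scaled to each library's own spike-ins the median of all genes moved by -0.17 and that of the list by -0.13. The split of the list turned to 35 higher and 90 lower, and the shares of all genes called by this scaling are not given here. The 1474 GC-rich eligible mRNAs had a median difference of 0.03 log2 too. Arl2bp, which binds the GTPase ARL2, had 1849, 1922 and 1940 in clone 5F and 3579, 3699 and 3709 in clone 7E, a difference of 0.95 ± 0.04 log2 (adjusted p = 6.19e-14, edgeR). Kank4 was higher by 0.99, Tdrp by 0.96, Cnst by 0.93 and Pard6a, a polarity protein, by 0.90. Arl2bp and the other 4 were higher by either scaling.

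Lower in clone 7E were Accsl, Slc6a8, Kdelr3 and Rcn1, of which Kdelr3, a receptor that returns proteins to the endoplasmic reticulum, and Rcn1, a calcium-binding protein of the same compartment, belong to the endomembrane group. Rcn1 had 2030, 1916 and 2058 in clone 5F and 1389, 1364 and 1383 in clone 7E, with -0.53 ± 0.05 log2 (adjusted p = 5.22e-09, edgeR). Accsl had -1.10, Slc6a8, the creatine transporter, -0.64 and Kdelr3 -0.62 log2. Relative to bulk, of the 37 genes of the 5′ to 3′ decay pathway 16 were higher and 6 lower in clone 7E, and Xrn1 itself had 2859, 2529 and 2679 in clone 5F and 3279, 3000 and 2959 in clone 7E, without overlap. Ago2 was among the lower ones, with -0.25 log2.

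**Figure D5:**
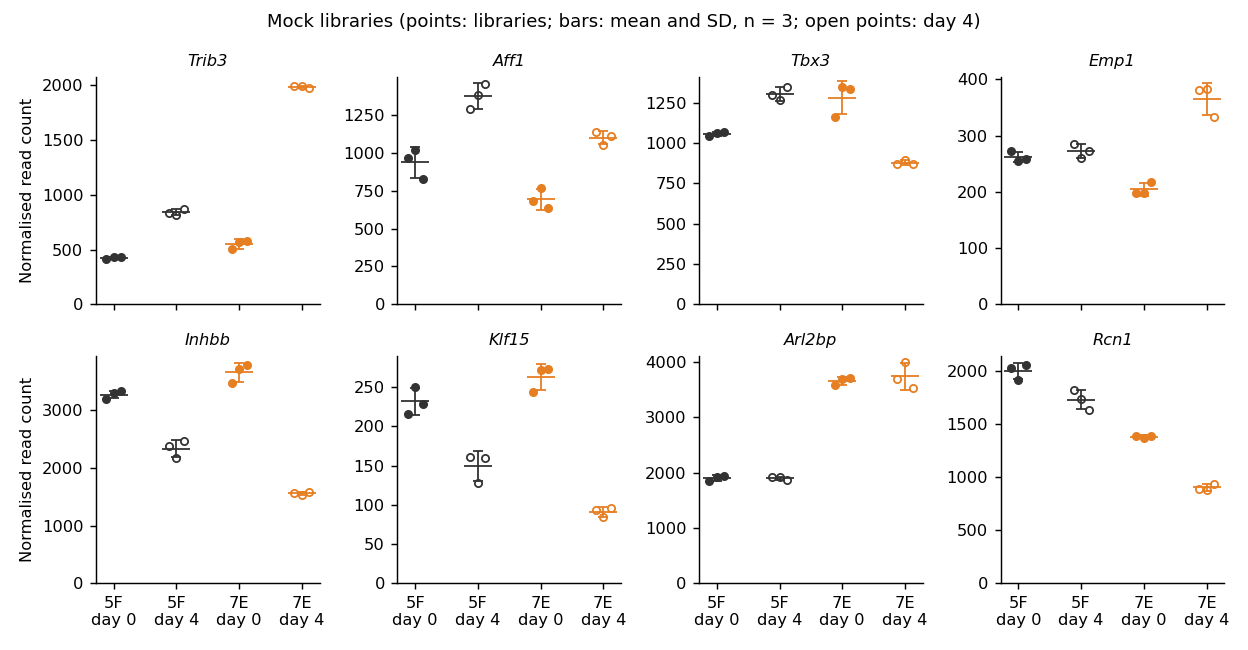
Normalised read counts of 8 of the 200 mRNAs in the mock libraries of clone 5F (dark) and clone 7E (orange) at day 0 (filled) and day 4 (open), with a point per library and the mean and SD of 3. Trib3 is higher and Inhbb and Klf15 are lower at day 4 in both clones, whereas Tbx3 is higher at day 4 in clone 5F and lower in clone 7E, all relative to the other mRNAs of the library.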

How the data were processed

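Members, gene lists and marker lists were chosen with earlier results of these data known. Per the study's methods, the authors mapped CRAC reads with Bowtie2 (2.3.4.1) to mm10 (GRCm38), collapsed duplicates, pooled replicates and deposited relative binding as a fraction of MTR4, SKIV2L and XRN1, AVEN as a ratio to their sum, RPKM of the tagged lines, and a score in which XRN1 binding is corrected for RPKM. These values have no replicate error. The authors deposited raw counts per gene from STAR, unstranded, for 53380 genes and 92 ERCC spike-ins. Columns of fold changes, adjusted p-values and half-lives by the authors were not used.

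Decay relative to bulk and mock levels were fitted with edgeR (4.0.16) after TMM scaling. Changes in decay used the study's scaling, median-of-ratios among libraries of equal treatment time, then a common factor for each time from 34 ERCCs with a mean over 50. Standard errors are the log2 value over the root of F. Half-lives came from a line through the natural log of normalised count + 1. The tests were checked on simulated data, where a slope of 0.1 log2 per hour was recovered for 56% and one of 0.3 for 98% of changed genes in the bulk comparison of clone 5F. Replicates differed by more than sampling noise, with a chi-square per gene of at least 3.01. Same-numbered mock libraries of the clones at day 0 deviated together (r = 0.286, 0.500 and 0.241), so the numbers pair those samples, and no other comparison met this for every number. The counts and errors given for that comparison come from the fit without a replicate block, and the count with a block is given below. DESeq2 (1.42.0), other filters and scalings, left-out replicates and a replicate block were the alternatives.

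Named mRNAs are the 10 with the largest XRN1 value, 2 on each side of the threshold, up to 5 per test and direction with the largest change among calls (mean count 100 or more, direction kept when any replicate was dropped), up to 4 per gene list by XRN1 value, the 5 shortest and 5 longest half-lives, and Skiv2l, Aven and Xrn1. Others (Klf4, Rarg, E2f2, Etv4, Klf13, Klf16, Hras, Pim3 and the casein kinases in their lists) were picked after their values were seen. The results of 1 mRNA that this rule names are not reported here. Sequences come from GRCm38 and RefSeq. Intervals cover counting of mRNAs only.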

Additional observations from a re-analysis of the deposited data

Results flagged for a closer look

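The change of the mock level with 4OHT differed between the clones for 59 of the 200 mRNAs, by edgeR's interaction test over all genes, which was added after the data had been seen. Relative to bulk, the change was higher in clone 7E than in clone 5F for Trib3 by 0.86 log2 (adjusted p = 2.34e-07, edgeR), for Emp1 by 0.78, for Phldb1 by 0.72, for Carhsp1 by 0.58 and for Abhd2 by 0.48, and each of these 5 turned negative with each library's own spike-ins. It was lower in clone 7E for Dlgap3, with -0.93 log2, for Klf15, with -0.89, for Ndrg2, with -0.86, for Tbx3, with -0.85, and for Inhbb, with -0.74, by both scalings. Skiv2l, the targeted gene, differed by -1.31 log2 (adjusted p = 5.56e-10, edgeR). The clones also differ in AVEN, the Skiv2l tag, the Skiv2l count at day 0, which was lower in clone 7E, and its fall at day 4. These cannot be told apart here.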

How the results depend on the processing

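The decay counts relative to bulk (154 called in clone 5F and 148 in clone 7E) and the count between clones before 4OHT (112) stayed within 1.5 times under every alternative run. With 4OHT, changes in decay in clone 5F numbered 0, and 1 without the mock libraries. In clone 7E the 1 call became 4 with DESeq2, 0 with no filter on low counts, 2 with a mean of at least 50 counts, 5 with TMM scaling, 0 with each library's own spike-ins, 6 without the mock libraries, 5 with mock and 120 min only, and 0 to 0 without 1 replicate each. Between clones it was 0, and 2 with TMM scaling. The count of mock changes with 4OHT was 69 in clone 5F, with 32 to 80 without 1 replicate each, and 105 in clone 7E, with 200 under own spike-ins. The difference between clones, 59, was 20 to 46 without 1 replicate each and 198 under own spike-ins. Own spike-ins reversed, in clone 7E with 4OHT, Emp1 (-0.26), Phldb1 (-0.36), Aff1 (-0.43) and Tmem64 (-0.46), and, between clones, Trib3 (-0.17), Emp1 (-0.25), Phldb1 (-0.31), Carhsp1 (-0.45) and Abhd2 (-0.56); the shift of all genes by that scaling is given above. The replicate block left 135 calls between clones before 4OHT, 48 and 94 with 4OHT in clones 5F and 7E, 151 and 145 for decay relative to bulk, 0 and 1 for changes in decay with 4OHT in clones 5F and 7E, 0 for decay between clones and 59 for the difference between clones, and changed no call of a named mRNA. The median half-life of 222.6 min was 229.3 min with the RPKM-corrected score, 275.7 min with a minimum RPKM of 20, and 219.6 to 232.5 min without 1 replicate each. With that RPKM minimum the median 3′ UTR was 1387.5 nt and the share with an AU-rich core 30.7%. The causes were not tested. Of 61 results for named mRNAs 49 kept direction and side of the threshold throughout. CRAC depth per mRNA is unknown.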
